A study of Arabis alpina with 12 samples.

Results

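H3K4me3 domains were compared with domains of DNA methylation (5mC) on and around the genes of young leaves of Arabis alpina, a perennial relative of Arabidopsis. Of the 24657 genes listed with an mRNA value, 7687 (31.2%) had at least 200 bp of H3K4me3 on the span, from gene start to gene end, and any 5mC on the span or within 2 kb of it. These 7687 genes are the ones in which the marks could be set against each other. Another 11107 genes had H3K4me3 and no 5mC within 2 kb, 2009 had 5mC within 2 kb and no H3K4me3, and 3854 had neither. The values come from 2 H3K4me3 chromatin immunoprecipitation libraries with 1 input library, 2 libraries of immunoprecipitated methylated DNA (MeDIP) with 2 inputs, and 1 mRNA library. Domains of H3K27me1 and H3K27me3, with 2 libraries each, were used to split the results. All plants were of accession Pajares and were grown in soil at 22.5 °C with 16 h of light and 8 h of dark. The study thus has no treatment or mutant, and the comparison is between marks and between places in the genome.

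H3K4me3 is a histone mark found at the starts of transcribed genes. In plants, 5mC is dense on transposons and in heterochromatin, where it often lies together with H3K27me1, and it also occurs within the bodies of some transcribed genes. At a gene, H3K4me3 and dense 5mC are known as marks of opposite states, so the distance between them shows how closely active chromatin lies against methylated DNA.

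With 1 domain list for each mark and 1 mRNA library, the values carry no replicate error, and no difference was tested. The labels do not say whether the libraries came from separate plants. Intervals are 95% intervals, exact for shares and from order statistics for medians, and cover counting error only. Sequencing depth is unknown. The files give no strand, gene name or sequence, so genes are named by identifier, the leaf identity could not be checked against marker genes, and the only orientation of a gene is the end at which H3K4me3 lay. In whole leaves, a base pair in both lists does not show both marks on the same molecule or in the same cell, and fewer cells with a transcript cannot be told apart from less transcript per cell.

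Genes with H3K4me3 had 5mC within 2 kb more often, and on the span less often, than genes without H3K4me3. H3K4me3 covered at least 200 bp of the span in 18794 genes, 76.2% of those listed. 5mC reached within 2 kb of 40.9% of these (40.2 to 41.6%), against 34.3% (33.1 to 35.5%) of the 5863 genes without H3K4me3. The level over all listed genes was 39.3%. Spans were longer with H3K4me3, so the zone searched was wider, and this was not corrected for. Median spans were 2225 bp with 5mC within 2 kb and 2232 bp without it, against 1859 and 1482.5 bp in genes without H3K4me3. At 1800 to 1950 bp outside genes of at least 2 kb, 5mC covered 10.1% of ends with H3K4me3 and 6.71% of their other ends. Ends of genes without H3K4me3 had 9.26%. 5mC over at least 200 bp of the span was present in 852 genes with H3K4me3 (4.53%, 4.24 to 4.84%) and in 483 genes without it (8.24%, 7.55 to 8.97%), with 5.41% over all listed genes. In most of the 7687 genes with both marks within reach, the methylated DNA was beside the gene. Of these genes, 6534 had 5mC in the flank only, 1153 had some on the span, and 540 had base pairs in both lists. Most genes without H3K4me3 had the same layout: of the 2009 with 5mC within 2 kb, 1440 had it in the flank only. Flanks of 2 kb on each side are together longer than most spans, and this was not corrected for.

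The share of H3K4me3 genes with 5mC within 2 kb differed between chromosomes. It was 33.4% on chromosome 3, 33.8% on chromosome 8, 34.3% on chromosome 1, 38.9% on chromosome 5 and 39.9% on chromosome 4. It was 47.7% on chromosome 7, 47.9% on chromosome 2 and 48.9% on chromosome 6, and 63.1% of the 1071 H3K4me3 genes on unplaced scaffolds. The intervals of chromosomes 2, 6 and 7 lay above those of all other chromosomes. Among the others, the intervals of chromosomes 4 and 5 lay above those of chromosomes 1, 3 and 8.

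5mC was scarce in and next to H3K4me3 and more frequent further out, but this slope was found between genes and not within them. Of the 37507 H3K4me3 domains, 20281 touched a listed gene and were read in windows of 150 bp from each edge. In the first window inside the edge, 2.60% of 40560 windows lay in 5mC (2.45 to 2.76%). In the first window outside, in sequence between listed genes, the share was 3.32% (3.04 to 3.62%). It was 5.12% in the second window, 7.26% in the third and 8.84% in the fourth. From 900 to 1050 bp it was 11.2%, and from 1800 to 1950 bp it was 12.1% (11.7 to 12.6%). The curve was therefore steepest in the first 600 bp and nearly flat from 900 bp, above the 10.4% of all 356647 flank windows outside H3K4me3.

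Within genes there was no such slope. Where the window outside the H3K4me3 edge still lay in a listed gene, 5mC covered 3.50% (3.28 to 3.73%) of the first windows and between 3.07 and 3.48% of those out to 1800 bp. From 1800 to 1950 bp it covered 3.31%, close to the 3.83% of all 314013 gene windows outside H3K4me3. Deeper inside the H3K4me3 domains the share was 1.93% at 150 to 300 bp, 1.59% at 300 to 450 bp and 2.81% at 450 to 600 bp. The last value came from the longer domains only, since a window so far from both edges needs a long domain.

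**Figure D1:**
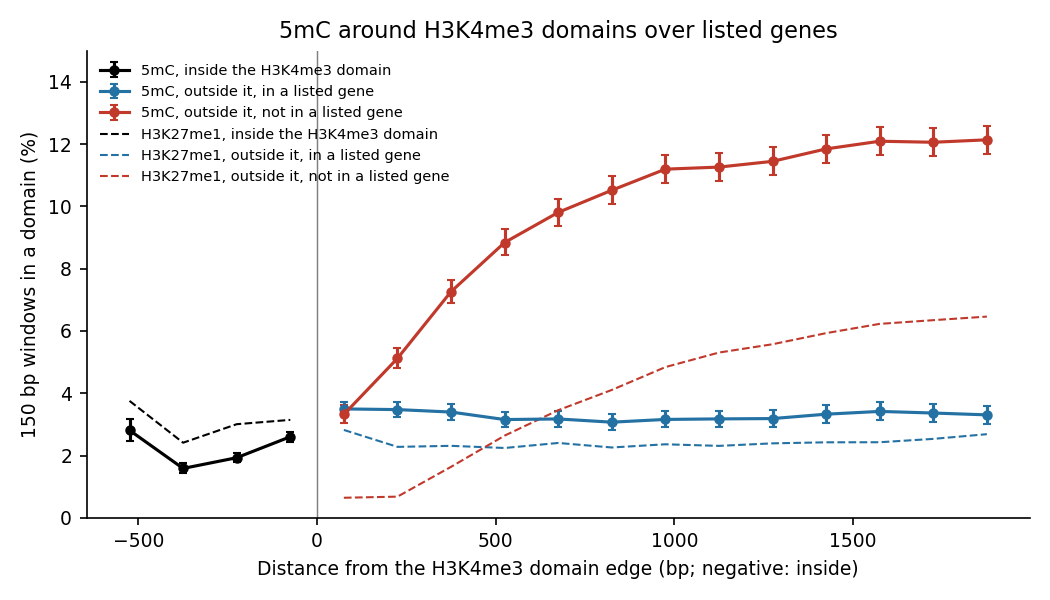
Share of 150 bp windows (%, y axis) in a 5mC domain (points, with exact 95% intervals) or an H3K27me1 domain (dashed lines), by distance in bp from the edge of H3K4me3 domains over listed genes (x axis, negative inside the domain). Between genes 5mC goes up with distance, with 3.32% at the edge and 12.1% at 1800 to 1950 bp, and inside genes it stays between 3.07 and 3.50%.

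H3K27me1 moved with 5mC along these windows. Between genes it covered 0.644% of windows at the H3K4me3 edge and 6.46% at 1800 to 1950 bp. With the windows in H3K27me1 domains left out, 5mC covered 0.710% of the first windows inside the edge, 2.88% of the first windows outside between genes, and 8.02% at 1800 to 1950 bp. On gene spans it then covered 1.48% next to the edge. The slope between genes was thus also present in windows without H3K27me1, and most of the 5mC inside H3K4me3 domains lay in windows that were also in H3K27me1. With the higher-scoring 50% of the domains of each mark (by score per kb) alone, 5mC covered 0.753% inside the edge, 1.60% just outside it between genes and 6.88% at 1800 to 1950 bp.

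The slope was present on every chromosome taken alone. The first window outside the edge between genes had 2.18% 5mC on chromosome 1, the lowest, and 4.46% on chromosome 2, the highest. At 1800 to 1950 bp the lowest was 10.01% on chromosome 1 and the highest 14.6% on chromosome 7. On the scaffolds the corresponding levels were 10.1% and 20.9%, and 11.6% of the first windows inside H3K4me3 were in 5mC, above the 3.68% of the highest chromosome.

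H3K4me3 domains that lay beside genes and touched none ran the other way. The 1668 such domains within 2 kb of a listed gene had 5mC in 37.6% (35.9 to 39.3%) of the first windows inside the edge. Outside, between genes, 5mC covered 37.9% of the first windows, 17.2% at 900 to 1050 bp and 8.55% (5.80 to 12.1%) at 1800 to 1950 bp. These domains were short, with a median of 450 bp against 750 bp for domains over genes, and 56.8% of them touched H3K27me1, against 3.65% of domains over genes. Their H3K4me3 score per kb, the authors' unlabelled value per domain divided by its length, had a median of 480.0 against 890.0 for domains over genes.

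Among the domains over genes, 749 (3.69%) shared base pairs with 5mC, and 287 of these (38.3%) lay wholly inside 5mC. The shared length was 409.2 kb, 2.53% of the 16.2 Mb of H3K4me3 over genes. The domains that shared base pairs with 5mC had a median score per kb of 506.7 (500.0 to 523.3), and the domains 0 to 300 bp from 5mC had 955.6 (933.3 to 980.0). Domains at least 2100 bp away had 889.3 (881.7 to 900.0). A low H3K4me3 score was thus found where the marks coincided, and not where 5mC lay just beside the domain.

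That low score was found with H3K27me1 and not without it. Of the 749 domains sharing base pairs with 5mC, 546 touched H3K27me1 and had a median score per kb of 475.6. The 203 that did not touch H3K27me1 had 924.4 (803.3 to 989.3), near the 906.7 (900.0 to 914.3) of the 19338 domains with neither mark. The 194 domains with H3K27me1 and no shared 5mC had 521.9. These domains were called from immunoprecipitations of bulk leaf, and the part of H3K27me1 in the difference was not tested.

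Seen from the 5mC list, methylated domains that overlapped H3K4me3 were longer. Of 2495 5mC domains touching listed genes, 692 shared base pairs with H3K4me3. Their median length was 1050 bp (quartiles 600 and 2250 bp), and that of the 352 lying 0 to 300 bp from H3K4me3 was 600 bp (quartiles 300 and 900 bp). H3K27me1 touched 80.8% of the 692 and 44.0% of the 352. Longer domains reach other domains more often through their length alone, and this was not corrected for. Of 9793 5mC domains in flanks, 1581 lay 0 to 300 bp from H3K4me3 and had a median of 450 bp, the same as for flank domains at least 2100 bp away. Their 5mC score per kb was also alike, at 719.0 (706.7 to 736.7) for the near ones and 716.7 (700.0 to 728.3) for the far ones.

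At gene ends, the end with H3K4me3 had the least 5mC inside the gene and, from 300 bp outward, the most outside it. For this, 13038 genes of at least 2 kb were read inward and outward from each end. In 9377 of them exactly 1 end had H3K4me3 over 150 bp or more of its outermost 300 bp, 220 had it at both ends, and 2248 had under 200 bp of H3K4me3 in all. At 150 to 300 bp inside the gene, 5mC covered 0.768% (0.601 to 0.966%) of H3K4me3 ends, 1.77% (1.51 to 2.06%) of the other ends of the same genes, and 5.34% (4.70 to 6.04%) of the ends of genes without H3K4me3. The 3 kinds of end kept this order in each inside window out to 900 bp. In the same order of ends, H3K27me1 covered 1.21, 1.38 and 4.31% at 150 to 300 bp inside, and its part was not tested.

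Outside the gene the order was different. In the first 150 bp, 5mC covered 2.20% at the H3K4me3 end, 2.09% at the other end and 4.63% at ends of genes without H3K4me3. At 450 to 600 bp it covered 7.94%, 4.51% and 5.60% in that order of ends. At 1800 to 1950 bp the H3K4me3 end had 10.1% (9.46 to 10.7%), the other end 6.71% (6.21 to 7.24%) and ends of genes without H3K4me3 9.26% (8.40 to 10.2%). The H3K4me3 end thus passed both other kinds of end within 450 bp of the gene.

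Neighbouring genes were not spread evenly around these ends. At 900 to 1050 bp outside, H3K4me3 of neighbours or of the gene itself covered 8.43% of windows at the H3K4me3 end, 16.5% at the other end and 9.48% at ends without H3K4me3. With windows touching another listed gene left out, 5mC at 1800 to 1950 bp covered 14.9% (14.0 to 15.8%) of 6093 windows at the H3K4me3 end. It covered 11.9% (11.0 to 12.9%) of 4868 windows at the other end and 13.2% (12.0 to 14.5%) of 2772 windows at ends of genes without H3K4me3. The gap between the ends of the same genes was then 14.9% against 11.9%, narrower in ratio than 10.1% against 6.71% in all windows.

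**Figure D2:**
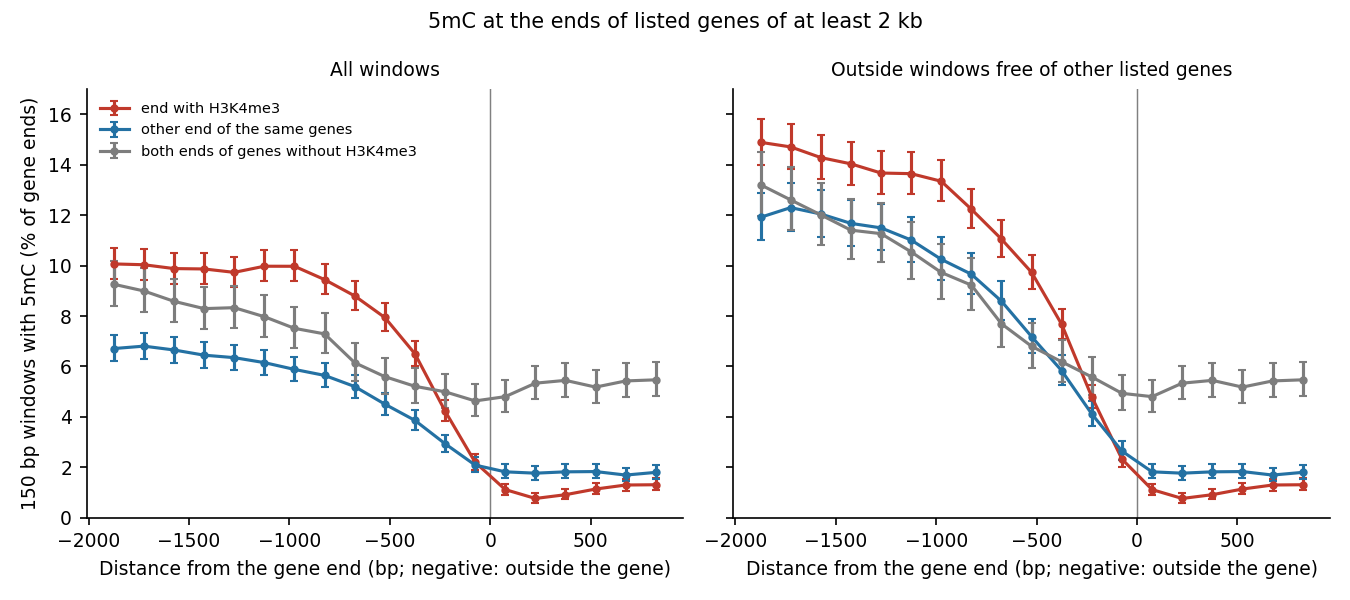
Share of gene ends (%, y axis) with 5mC in each 150 bp window, by distance in bp from the gene end (x axis, negative outside the gene), for ends with H3K4me3, the other ends of the same genes, and both ends of genes without H3K4me3; bars are exact 95% intervals. The right panel leaves out outside windows that touch another listed gene, and there the H3K4me3 end has 14.9% at 1800 to 1950 bp, against 11.9% at the other end and 13.2% without H3K4me3.

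The nearest 5mC lay on the H3K4me3 side of the gene more often than on the other side, which follows in part from measuring distance to H3K4me3. Of the 7687 genes, 3818 (49.7%) had it in the flank at the H3K4me3 end, with a median distance of 750 bp where no base pair was shared. Another 1637 (21.3%) had it beyond the other end, at a median of 2250 bp, and 1011 (13.2%) had it on the span, at a median of 450 bp. The remaining 1221 genes had H3K4me3 at both ends or at neither and could not be oriented.

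Both marks covered at least 200 bp of the same span in 852 genes. In 430 of these (50.5%, 47.1 to 53.9%) they lay on separate parts with no shared base pair, and in 422 they overlapped. Genes with separate marks had less 5mC, with a median of 600 bp or 18.4% of the span, against 1927 bp or 60.4% in genes with overlapping marks. They had 750 bp of H3K4me3 against 1050 bp. Both kinds of gene were long, with median spans of 4177 bp where the marks were separate and 3807 bp where they overlapped, against 2188 bp for the 17641 H3K4me3 genes with no 5mC on the span.

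The sets differed in the other marks too. H3K27me1 covered at least 200 bp of the span in 40.2% (35.6 to 45.0%) of genes with separate marks, against 80.1% (76.0 to 83.8%) of genes with overlapping marks. H3K27me3 did so in 88 genes (20.5%) with separate marks and in 162 genes (38.4%) with overlapping marks. Over all listed genes the shares were 4.60% for H3K27me1 and 13.1% for H3K27me3, so both sets lay above them. The H3K4me3 score per kb had medians of 852.8 in separate and 529.4 in overlapping genes, while the 5mC score per kb was 755.5 in separate and 789.8 in overlapping genes. Scaffolds held 13.7% of the separate and 28.4% of the overlapping genes, against 9.82% of all listed genes. Overlap thus came with H3K27me1, H3K27me3, scaffolds and low H3K4me3 scores, and the part of each was not tested. It also came with more of the span under each mark. The medians in overlapping genes were 60.4% for 5mC and 32.2% for H3K4me3, against 18.4% and 18.3% in separate genes. Marks that cover more of a span share base pairs more often through their extent alone, and this was not corrected for.

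The share of genes with separate marks was lower with H3K27me1 on the span than without it. With H3K27me1 on the span, the marks were separate in 33.9% (29.8 to 38.1%) of 511 genes. Without it they were separate in 75.4% (70.4 to 79.8%) of 341 genes. The share varied less between chromosomes and spans: it ran between 45.7% on chromosome 2 and 60.3% on chromosomes 4 and 5, with 33.0% on scaffolds, and was 41.3% for spans under 2 kb and 52.8% for spans of 4 kb or more. The share itself rests on how strictly domains are taken. It was 68.5% of 397 genes when only the higher-scoring 50% of each mark's domains was used.

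Where the marks were separate, 5mC lay toward the far end of the gene. In 294 of the 430 genes H3K4me3 was at exactly 1 end, and counted from that end the centre of the 5mC lay at a median of 68.5% of the span length (quartiles 51.4 and 81.6%). It lay beyond the middle of the span in 227 of them (77.2%, 72.0 to 81.9%). In the 217 overlapping genes with H3K4me3 at 1 end, the centre lay at 50% (quartiles 41.5 and 57.6%), and beyond the middle in 103 (47.5%). Part of this contrast is fixed by the definition, since separate marks leave the H3K4me3 end free of 5mC.

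The layout along the span is a description of the same kind, since separate marks cannot lie in the same place and the span was counted from the H3K4me3 end. With the span cut into 10 equal parts, 5mC covered at least 50% of the first part in 0.680% of the 294 genes with separate marks, of the fifth in 25.2% and of the ninth in 40.1%. H3K4me3 covered the first part in 87.4% and the fifth in 14.3%. In the 217 overlapping genes, 5mC was spread over the whole span, at 45.6% of genes in the first part, 54.4% in the fifth and 54.4% in the ninth. H3K27me1 followed 5mC there, at 50.7% in the first part and 51.6% in the ninth, and in separate genes it was at 4.42% in the first and 16.0% in the ninth. In overlapping genes 5mC was thus about as frequent at the H3K4me3 end as at the other end, where the last part had 49.3%.

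**Figure D3:**
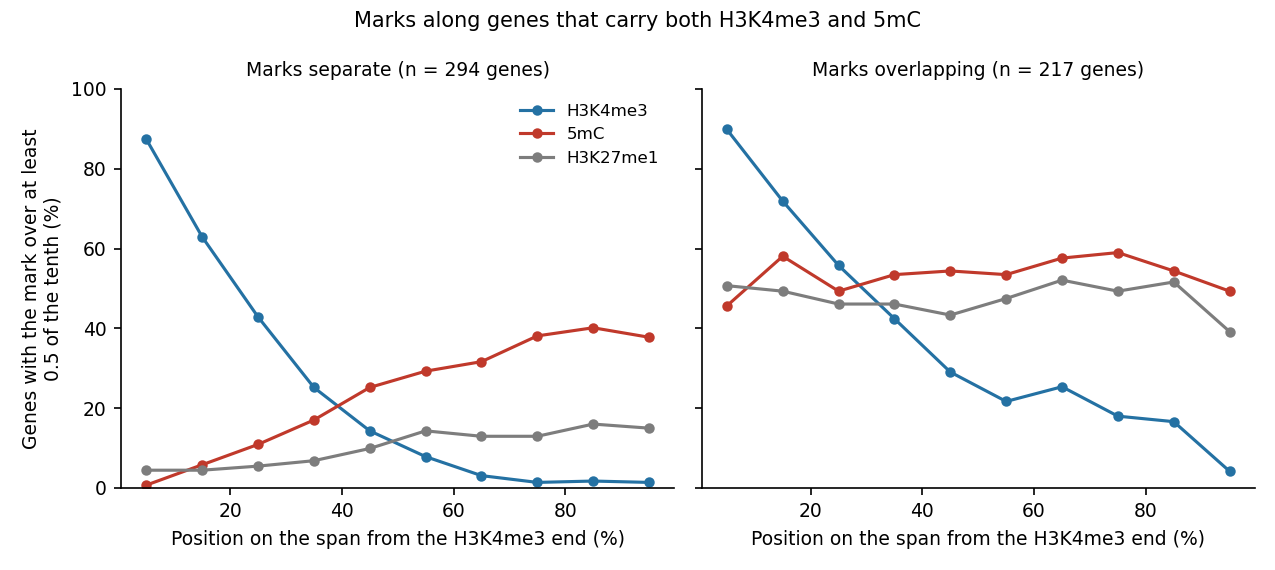
Share of genes (%, y axis) with H3K4me3, 5mC or H3K27me1 over at least 50% of each of 10 equal parts of the span, by position from the end with H3K4me3 (%, x axis), in 294 genes with separate marks (left) and 217 with overlapping marks (right). In separate genes 5mC goes up along the span, with 40.1% in the ninth part, and in overlapping genes it stays between 45.6 and 59.0%.

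The gap between the marks in separate genes was short in most cases. It had a median of 600 bp, quartiles of 150 and 1500 bp, and a highest value of 8700 bp. The marks were directly adjacent in 76 genes (17.7%), 150 to 300 bp apart in 85, 450 to 600 bp apart in 67, 750 to 1500 bp apart in 116 and over 1500 bp apart in 86. Median mRNA coverage, the authors' read coverage of the exons, was 3.23 (1.98 to 4.37) where the marks were adjacent. It was 4.63 at 150 to 300 bp, 5.37 at 450 to 600 bp, 4.81 at 750 to 1500 bp and 5.04 at over 1500 bp, with intervals that overlapped one another. The lowest coverage in the table, exactly 1, was held by 25% of the adjacent genes and by 5.97 to 8.14% of the genes in the other classes.

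mRNA coverage was higher with separate than with overlapping marks. Its median was 4.63 (4.13 to 5.30) in the 430 separate genes, with quartiles of 2.28 and 9.14. In the 422 overlapping genes it was 1.22 (1.02 to 1.44), with quartiles of 1.00 and 3.59. H3K4me3 genes with no 5mC on the span had 7.77 (7.64 to 7.91), and all listed genes had 5.77. Coverage of exactly 1 was held by 8.86% of listed genes. It was held by 10.5% (7.74 to 13.8%) of separate genes, 44.8% (40.0 to 49.7%) of overlapping genes and 1.80% of H3K4me3 genes without 5mC on the span. Overlapping genes thus resembled the 483 genes with 5mC and no H3K4me3, whose median was 1.27 (1.12 to 1.45) with 43.1% at 1, more than they resembled other H3K4me3 genes.

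Without H3K27me1 on the span this difference was not seen. The 257 separate genes without H3K27me1 had a median coverage of 5.89 (5.03 to 6.51), and the 84 overlapping genes without it had 5.70 (4.27 to 7.05). With H3K27me1 on the span, 173 separate genes had 3.37 (2.67 to 4.05) and 338 overlapping genes had 1.00 (1.00 to 1.02), the lowest value listed. Among genes with neither H3K27me1 nor H3K27me3 on the span, 216 with separate marks had 6.12 (5.32 to 6.80) and 76 with overlapping marks had 5.77 (4.36 to 7.32). Most overlapping genes carried H3K27me1, so those without it were few and also shorter, with a median span of 1735 bp against 3215 bp for separate genes without it.

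Overlapping genes also differed by how far the marks coincided, taken as the part of the shorter mark on the span that lay in the other. The median coverage was 2.46 (2.03 to 4.84) in 35 genes with up to 25% of the shorter mark in the other. It was 1.68 (1.21 to 3.47) in 97 genes with 25 to 50%, 1.00 in 79 genes with 50 to 75% and 1.00 in 73 genes with 75% to under 100%. In 138 genes whose shorter mark lay wholly in the other it was 1.26 (1.00 to 1.60), and these were the shortest, with a median span of 2365 bp against 4939 bp in the class before. The classes differed in other marks too. In the same order, H3K27me3 lay on the span in 20.0, 29.9, 45.6, 47.9 and 39.9% of genes. H3K27me1 lay within 2 kb of 88.6, 74.2, 88.6, 95.9 and 87.0%. The part of these marks and of span in the coverage was not tested.

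Over the wider zone of 2 kb, mRNA coverage was low where the marks shared base pairs and close to that of unmethylated neighbourhoods at other distances. The 540 genes with shared base pairs had a median of 1.70 (1.45 to 2.05), and 36.3% (32.2 to 40.5%) of them were at 1. At 0 to 300 bp between the marks, 1533 genes had 6.79 (6.23 to 7.26). At 450 to 600 bp, 1160 genes had 7.97 (7.50 to 8.72).

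The medians at larger distances were in the same range. They were 7.71 in 1340 genes at 750 to 1050 bp, 8.05 in 1097 genes at 1200 to 1500 bp, 8.40 (7.71 to 9.45) in 829 genes at 1650 to 1950 bp and 6.73 (6.30 to 7.16) in 1188 genes at 2100 bp or more. The 11107 H3K4me3 genes with no 5mC within 2 kb had 7.79 (7.60 to 7.98), with 1.59% at 1. The genes at 2100 bp or more were longer, with a median span of 2881 bp against 2232 bp for genes without 5mC within 2 kb.

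On the scale of log2(coverage + 1), which understates differences between low genes, the median of genes with shared base pairs minus that of genes without 5mC within 2 kb was -1.71 (-1.84 to -1.53). It was -0.93 without genes at a coverage of 1 and -1.07 with the higher-scoring 50% of the domains of each mark. At 0 to 300 bp the difference was -0.18 (-0.28 to -0.089). Over 450 to 1950 bp it was 0.029 (-0.012 to 0.094), and -0.0048 with a flank of 1 kb. Intervals of these log2 differences, here and below, carry the counting error of the first median only. The median of genes without 5mC within 2 kb was held fixed. The 540 genes with shared base pairs thus stood apart from all other distance classes, whose medians were between 6.73 and 8.40. With these 540 left out, the 7147 other genes with 5mC within 2 kb had a median of 7.45 (7.26 to 7.69).

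**Figure D4:**
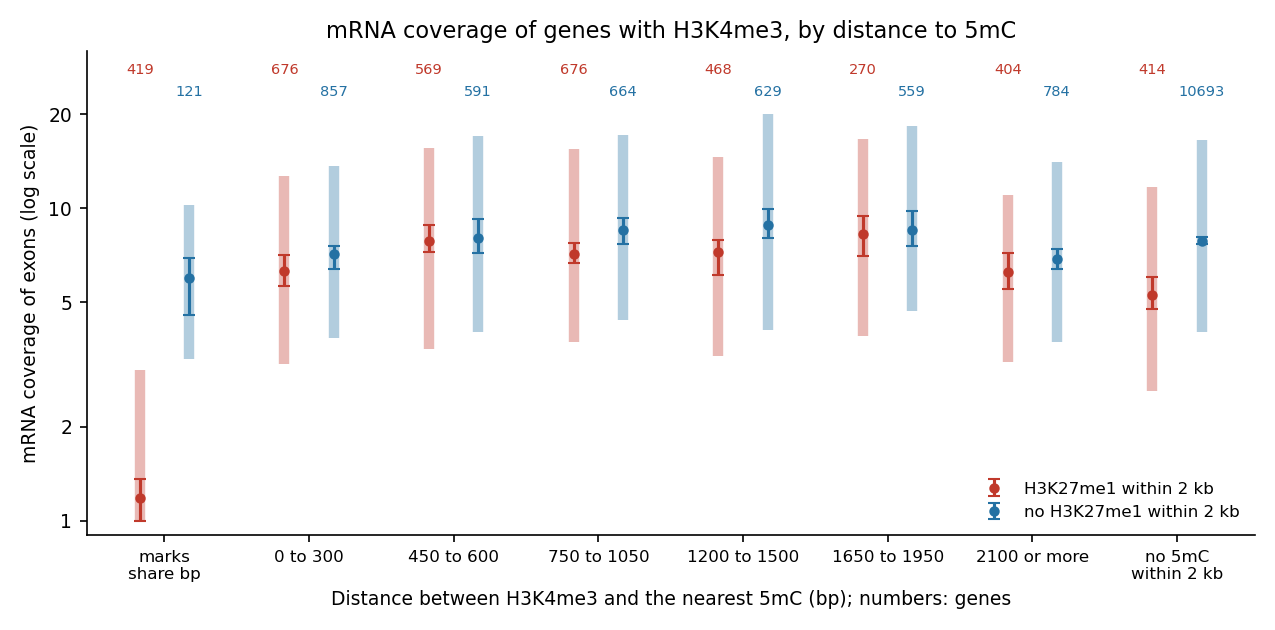
mRNA coverage of exons (y axis, log scale) of H3K4me3 genes by bp between H3K4me3 and the nearest 5mC (x axis), with H3K27me1 within 2 kb (red) and without it (blue); points are medians with 95% intervals, pale bars run between the quartiles, and numbers count genes. With H3K27me1, genes whose marks share base pairs have a median of 1.18, and without it 5.99, nearer to the 7.89 of genes with neither 5mC nor H3K27me1 within 2 kb.

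H3K27me1 divided the genes with shared base pairs. It covered at least 200 bp within 2 kb of 20.8% of listed genes and of 419 of the 540 (77.6%). The 419 genes had a median coverage of 1.18 (1.00 to 1.36) and 46.1% were at 1. The 121 genes without H3K27me1 had 5.99 (4.55 to 6.94) and 2.48% were at 1. Set against genes of the same H3K27me1 state with no 5mC within 2 kb, the log2 difference was -1.53 with H3K27me1 and -0.35 (-0.68 to -0.16) without it.

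In the other classes the medians with and without H3K27me1 lay closer together. At 0 to 300 bp the median was 6.32 (5.63 to 7.08) in 676 genes with H3K27me1 and 7.14 (6.42 to 7.59) in 857 genes without it. At 1200 to 1500 bp it was 7.24 (6.11 to 7.90) in 468 genes with H3K27me1 and 8.83 (8.05 to 9.99) in 629 without. With no 5mC within 2 kb it was 5.30 (4.77 to 6.03) in 414 genes with H3K27me1 and 7.89 (7.70 to 8.11) in 10693 without. Genes with H3K27me1 within 2 kb therefore had the lower median in each of these classes, and the widest gap was in genes whose marks shared base pairs. Genes with H3K27me1 and no shared base pair had a higher median at every distance than H3K27me1 genes with no 5mC within 2 kb. Their log2 difference was between 0.21 at 2100 bp or more and 0.56 at 1650 to 1950 bp. Among genes without H3K27me1 the same difference was between -0.17 at 2100 bp or more and 0.14 at 1200 to 1500 bp. The reason was not tested.

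The low coverage of genes with shared base pairs was found across gene sizes and amounts of H3K4me3. For spans under 1500 bp the median was 3.53 with shared base pairs and 8.78 without 5mC within 2 kb. For spans of 1500 to 3000 bp it was 2.41 with shared base pairs and 8.18 without 5mC, and for spans of 3000 bp or more it was 1.21 with shared base pairs and 6.92 without 5mC. Genes with at least 900 bp of H3K4me3 had 1.29 (n = 301) with shared base pairs and 12.2 (n = 3389) without 5mC within 2 kb. Genes with 600 to 900 bp had 3.62 (n = 128) with shared base pairs and 7.66 (n = 4872) without. Genes with 200 to 600 bp had 1.46 (n = 111) with shared base pairs and 4.45 (n = 2846) without. Without 5mC the median was thus higher in each larger class of H3K4me3, and with shared base pairs it was highest in the middle class. Among genes with shared base pairs, H3K27me1 lay within 2 kb of 86.4% in the class of at least 900 bp, 60.2% in the middle class and 73.9% in the lowest, and their median spans were 4145, 2134 and 2101 bp in the same order. The part of H3K27me1 and span in these values was not tested.

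By chromosome, the median of genes with shared base pairs was between 1.32 on chromosome 7 and 2.94 on chromosome 5, and that of genes without 5mC within 2 kb between 7.40 on chromosome 2 and 8.60 on chromosome 7. On scaffolds the values were 1.14 with shared base pairs and 6.16 without 5mC within 2 kb. At 0 to 300 bp the order was not the same everywhere: chromosome 1 had 7.51 at this distance against 7.49 without 5mC, and chromosome 3 had 6.12 against 8.20.

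Where the nearby 5mC lay also went with coverage. At 0 to 300 bp from H3K4me3, 1057 genes with the 5mC in the flank at the H3K4me3 end had a median of 7.40 (6.92 to 7.93) and 1.04% at 1. The 267 genes with it on the span had 4.80 (4.22 to 5.49) and 11.6% at 1. Over all distances without shared base pairs, 558 genes with the nearest 5mC on the span had 5.11, against 7.83 for 3761 genes with it at the H3K4me3 end and 7.65 for 1632 genes with it beyond the other end. The median for 5mC at the H3K4me3 end was thus close to the 7.79 of genes without 5mC, and that for 5mC on the span was lower. The 558 genes with 5mC on the span also had H3K27me3 on the span more often, in 14.7% against 4.47% of the 3761, and longer spans, with a median of 3086 bp against 2305 bp. H3K27me1 within 2 kb was found in 43.5% of the 558 and 43.6% of the 3761. The part of H3K27me3 and span in the difference was not tested.

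Single genes show the layouts, with coordinates on the authors' assembly; no label or header names its build. They were taken by coverage, by length of 5mC and by gap, and their functions are not annotated in the files. Among genes with separate marks the highest coverage was 793.0, in Aa_G237140 on chromosome 7 (15310778 to 15316318, 5541 bp). H3K4me3 covered 2100 bp of it in 3 domains that began next to its lower end, the first 1350 bp long with a score of 1212. A 5mC domain of 300 bp (15313801 to 15314100, score 396) lay 450 bp beyond the last of them. Next came Aa_G578520 on chromosome 5 (6649909 to 6656489), with a coverage of 462.2, in which an H3K4me3 domain of 2250 bp and 450 bp of 5mC were 1500 bp apart.

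The genes with the most 5mC apart from H3K4me3 were long genes with 5mC over much of their interior. In Aa_G563350 on scaffold scaff_54397_1 (64978 to 82781, 17804 bp), 7 domains of 5mC covered 8550 bp, 48.0% of the span, and a single H3K4me3 domain of 1050 bp lay across the upper end, 450 bp from the nearest 5mC. Its coverage was 25.5, higher than in 88.2% of listed genes. In Aa_G256270 on chromosome 4 (1344305 to 1356449), 5mC covered 8400 bp, 69.2% of the span, with 1 domain of 6150 bp, and H3K4me3 covered 746 bp at the lower end. Its coverage was 2.73. Both genes had H3K4me3 at an end and 5mC over much of the rest. H3K27me1 covered 900 bp of Aa_G563350 and 3450 bp of Aa_G256270. The genes also differed in span, in the share under 5mC and in lying on a scaffold or a chromosome. The part of each in the coverage was not tested.

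The widest gap was 8700 bp, in Aa_G119940 on chromosome 6 (34517798 to 34532360) and in Aa_G469410 on chromosome 4 (22517836 to 22530760). The coverage was 3.72 in Aa_G119940 and 2.26 in Aa_G469410. H3K4me3 covered 300 bp of Aa_G119940 and 600 bp of Aa_G469410, so both had little of it. H3K27me3 covered 900 bp of Aa_G119940 and 2400 bp of Aa_G469410.

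Overlapping marks were not always found with low coverage. Aa_G450000 on chromosome 7 (15908852 to 15912929) had a coverage of 108.4, with H3K4me3 over 1499 bp from its lower end and a 5mC domain of 300 bp (15910051 to 15910350) covering the last 300 bp of that H3K4me3 domain. It had no H3K27me1 or H3K27me3 on the span. Aa_G571830 on chromosome 3 (23398911 to 23405367) had a coverage of 105.0 with all 4 marks on the span. Its H3K4me3 domain of 300 bp, with a score of 117, lay wholly inside a 5mC domain of 2400 bp. Aa_G110390 on chromosome 2 (16675259 to 16677143) also held all 4 marks, with a coverage of 99.0, but there H3K4me3 and 5mC were 750 bp apart.

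The next 2 genes were picked for the highest coverage among those with 5mC only in the flank and within 300 bp of H3K4me3, so their coverage does not describe that set. Aa_G556440 on chromosome 1 (15447136 to 15450670) had 2133 and an H3K4me3 domain of 3300 bp over 93.4% of the span, with a 5mC domain of 450 bp (15446401 to 15446850) 300 bp from it. Aa_G105570 on chromosome 3 (22671799 to 22673164) had 1202, with H3K4me3 over 89.0% of the span and a 5mC domain of 750 bp ending 150 bp from it. H3K27me3 also covered 964 bp of its 1366 bp span. That 5mC domain had a score per kb of 1547, 2.30 times the median of all 5mC domains. In both genes H3K4me3 covered nearly the whole span and 5mC stopped short of the gene.

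**Figure D5:**
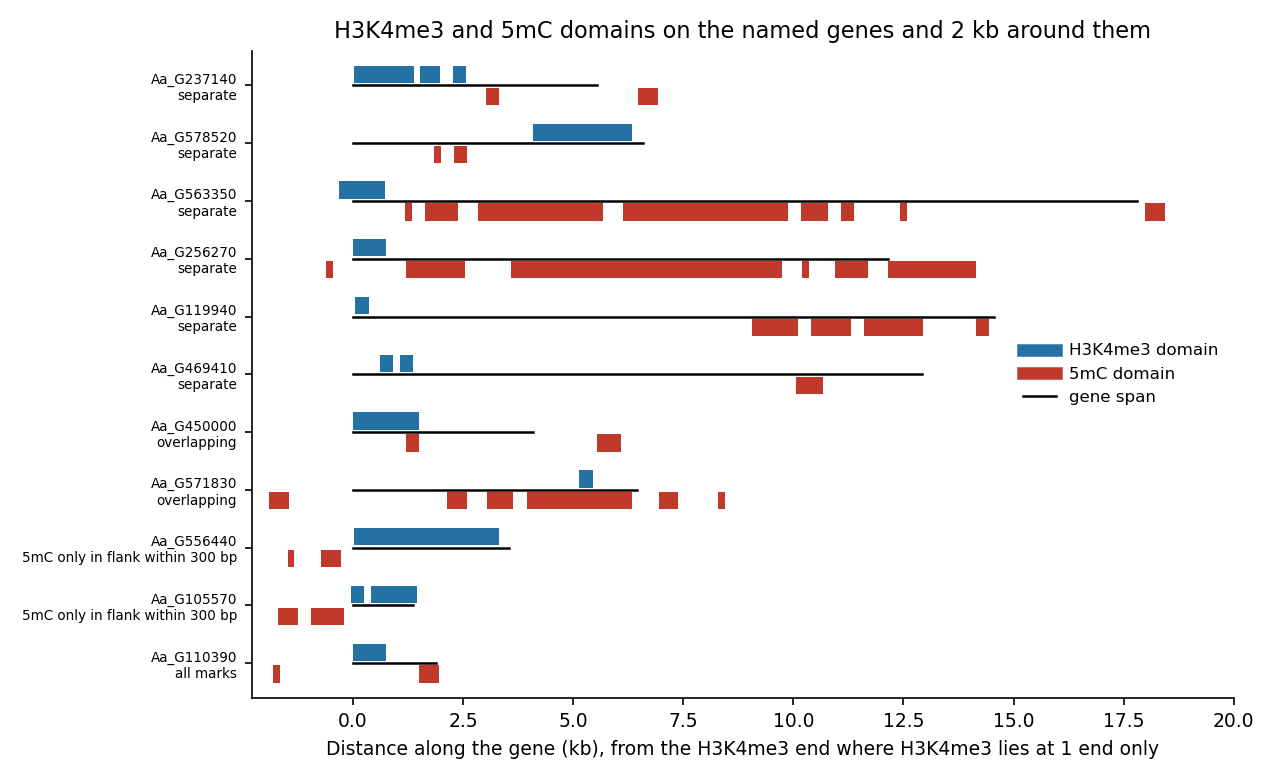
H3K4me3 domains (blue, above the line) and 5mC domains (red, below it) on the spans of the named genes (black lines) and 2 kb around them, by distance in kb along the gene (x axis), counted from the H3K4me3 end where H3K4me3 lies at 1 end only and otherwise from the lower coordinate. In the separate genes 5mC begins 450 to 8700 bp from H3K4me3, in the overlapping ones it covers part or all of the H3K4me3 domain, and in the flank-only ones it stops 150 to 300 bp short of H3K4me3.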

How the data were processed

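The submitters' processing notes name Bowtie, an aligner, and SICER, which calls broad domains. Versions, parameters, the build and the way replicates were combined are not stated in any source used here. Each deposited domain list holds a score per domain that the authors left unlabelled. It was used only within a list, per kb of domain. The deposited mRNA table holds the authors' read coverage of exons per gene, a signal never below 1, on a scale not stated. Domain starts were read as 0-based and ends as inclusive.

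A mark was called on a span from 200 bp and in a 150 bp window from 75 bp. Windows were assigned to genes by their centre, those in another H3K4me3 domain were left out, and the middle window of a domain with an odd number of windows counted from both edges. Distances use whole H3K4me3 domains touching the span and 5mC up to 2 kb from it. Nothing was tested, since no table has replicates. Named genes are the 2 of highest coverage in each set and, with separate marks, the 2 with the most 5mC and the 2 with the widest gap. Members, sets and alternatives were chosen with earlier results of these data known, and the splits by H3K27me1 after seeing the data. Scripts (Python 3.11.15, numpy 2.4.6, pandas 2.3.3, scipy 1.17.1, matplotlib 3.10.9) were tested on simulated data.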

Additional observations from a re-analysis of the deposited data

How the results depend on the processing

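No paired analysis was possible because there is a single domain list for a mark, with no list per replicate, and for the same reason no replicate could be left out. Of 80 values under alternatives, 38 stayed near the value reported (within its counting interval or, for counts of genes, within 1.5 times), 41 moved further, and 1 changed sign. The 5mC shares, in the order first window inside the H3K4me3 edge, first outside between genes, 1800 to 1950 bp outside between genes, and first outside on the span, were 0.753, 1.60, 6.88 and 0.917% with the higher-scoring 50% of the domains of each mark (by score per kb). They were 2.02, 2.91, 11.6 and 2.79% on the chromosomes alone, and 0.710, 2.88, 8.02 and 1.48% without H3K27me1 windows. Joining domains across 300 bp gave 12.8% at 1800 to 1950 bp and 3.12% on the span, and keeping windows in other H3K4me3 domains gave 12.6% at 1800 to 1950 bp. At gene ends the higher-scoring 50% gave 0.252% at 150 to 300 bp inside the H3K4me3 end, 5.55% at 1800 to 1950 bp outside it and 3.37% outside the other end. The chromosomes alone gave 0.546% inside the H3K4me3 end, and windows free of other genes gave 14.9% and 11.9% outside. Marks were separate in 272 of 397 genes (68.5%) with the higher-scoring 50%, in 55.1% on the chromosomes, in 677 genes (56.7%) with a 1 bp minimum, in 252 (42.4%) with 400 bp, and in 257 of 341 (75.4%) without H3K27me1. For shared base pairs, the log2 difference in mRNA coverage was -1.07 with the higher-scoring 50%, -1.51 on the chromosomes, -2.14 with a pseudocount of 0.1, -0.93 without genes at 1, -2.01 with no other listed gene within 2 kb and -0.35 without H3K27me1. For 450 to 1950 bp it was 0.10, 0.098 and 0.11 with the higher-scoring 50%, with no other gene within 2 kb and without H3K27me1, and -0.0048 with a 1 kb flank, where the interval includes 0. Among the named genes the higher-scoring 50% moved the gap to 600 bp in Aa_G105570 and 1650 bp in Aa_G110390. Aa_G119940, Aa_G469410 and Aa_G571830 had no H3K4me3 left under that setting, since their H3K4me3 domains scored below the median per kb. The widest gaps and the overlap in Aa_G571830 thus rest on low-scoring H3K4me3 domains. The alternatives without H3K27me1 were added after seeing the data, and the cause of these moves was not tested. Depth is unknown, so how many weak domains were missed cannot be given.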
